A study of Apis mellifera with 18 samples.

Results

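The response of gene expression to pear pollen collection was compared between 2 tissues of the Italian honey bee (Apis mellifera), the mouthparts and a tissue that the labels call tentacles. For each gene the log2 difference between bees that collected pear pollen and control bees without pollen was measured in the mouthparts, and the same difference in the tentacles was subtracted from it. This quantity is called the interaction here. It is above 0 where pear pollen collection went with a higher level in the mouthparts than the change in the tentacles would give, and below 0 in the opposite case. All 4 groups of the comparison were used, control mouthparts, pear mouthparts, control tentacles and pear tentacles, with 3 libraries in each, so that 12 of the 18 libraries of the series entered. The other 6 were grouped as Olea europaea pollen, 3 of them under labels that conflict, and entered only an alternative fit of all 18. The labels give no age, colony or number of bees, and whether replicates came from different bees is not stated. The p-values therefore speak only of the spread among these 12 libraries, which may be technical. Of 17545 genes in the table, 13226 had enough reads to be tested. The interaction passed the threshold, an adjusted p under 0.05 in edgeR's quasi-likelihood test with Benjamini-Hochberg adjustment over all genes tested, in 1587 of them, and 189 of these changed in opposite directions in the 2 tissues.

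The mouthparts of a worker bee lick up nectar and work pollen into loads, and they hold muscle, taste hairs and the outlets of head glands. Odorant receptors and odorant binding proteins detect and carry smells and are mostly found in the antennae of insects. The hypopharyngeal glands in the head of young workers secrete the major royal jelly proteins, and in older workers they make more of the enzymes that split sugars. A difference in RNA between whole tissue pieces can come from fewer cells of a type or from less RNA per cell, and these cannot be told apart in such libraries.

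Total counts ran from 27.8 to 29.3 M (1e6 counts) in the control mouthparts, 37.0 to 40.3 M in the pear mouthparts, 30.5 to 41.4 M in the control tentacles and 29.2 to 31.1 M in the pear tentacles. The first principal component of log2 counts per 1e6 counts (CPM) held 76.0% of the variance and parted the tissues, and the second held 10.6% and parted pear from control in both. The markers of the tissues were in accord with the labels. The homeotic gene proboscipedia (GB51302), which shapes mouthparts in insects, stood between 84.5 and 106.1 CPM in the mouthparts and between 0.117 and 0.300 CPM in the tentacles. The 143 odorant receptors tested summed to 2227 to 2712 CPM in the tentacles and 69.95 to 103.1 CPM in the mouthparts. The replicate spread was unequal. The pear tentacles libraries lay closest together, with a chi-square per degree of freedom between 3.40 and 4.74 for their pairs against 10.3 to 52.9 elsewhere, and they too differed by more than sampling noise. Replicate 2 of the pear mouthparts stood apart in muscle genes, as it was the highest of its group in 37 of 41.

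The tissues shared much of the pear effect but a sizeable group of genes did not follow it. In the mouthparts 2233 genes rose with pear (16.9% of those tested) and 2226 fell (16.8%), and in the tentacles 1666 rose (12.6%) and 1443 fell (10.9%). Both effects passed in 1824 genes, with the same direction in 1635. Among these 1635 the interaction did not pass in 1426. In all, the interaction passed in 1587 genes, or 12% of those tested. It was above 0 in 696 (5.26%) and below 0 in 891 (6.74%), and it was at least 2-fold in 432. In most of these genes the effect passed in 1 tissue only. In the mouthparts 470 of these fell and 345 rose, and in the tentacles 158 rose and 155 fell. Not passing in the other tissue is not absence of change. Control and pear libraries did not overlap in either tissue in 108, 88, 58 and 35 of these, in the same order. These counts are to be read against genes not past the interaction, where the same held in 2521 of 11639. A further 209 changed in the same direction by unequal amounts, and 61 passed the interaction with neither tissue passing by itself.

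The direction split depends on the scale. On log2(FPKM + 1), where the median interaction of all genes was 0.13 against 0.01 on the count scale, 73.6% of 2260 calls were above 0, against 43.9% here. On that scale 3609 genes rose and 1288 fell in the mouthparts, a share of 73.7% against 50.1% here. The calls shared with that scale were 1142. Without replicate 2 of the pear tentacles 1034 genes passed.

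**Figure D1:**
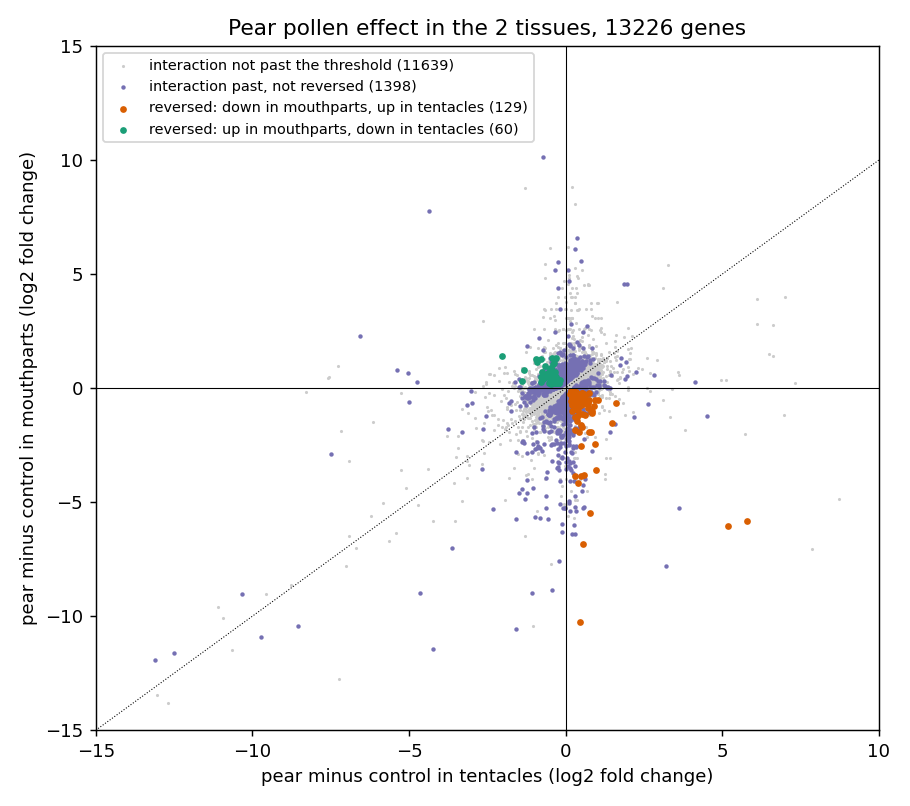
Each of the 13226 tested genes is a point at its log2 fold change with pear in the tentacles (horizontal axis) and in the mouthparts (vertical axis), and the dotted line marks equal change. The 129 genes in orange fell in the mouthparts and rose in the tentacles, and the 60 in green did the opposite. The fitted position of the 48 genes past the threshold that have 3 counts or fewer in a group depends on the prior count.

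On the count scale, opposite changes were more often a fall in the mouthparts and a rise in the tentacles, while on log2(FPKM + 1) they were more often the reverse. The first group had 129 genes (0.975% of those tested), with a median change of -0.47 in log2 in the mouthparts and 0.37 in the tentacles. The other orientation had 60 genes (0.454%), with medians of 0.43 and -0.39. Both orientations together made up 1.43% of the genes tested. The count was 106, 109 or 118 when replicate 1, 2 or 3 of the pear tentacles was left out, and on log2(FPKM + 1) 63.5% of 178 reversed genes rose in the mouthparts, against 31.7% here. Of 41 reversed genes named in the text, all had effects of opposite sign under each alternative processing in which they were tested. Of these, 16 also kept every test past its threshold under each of those alternatives. These 41 were chosen by their values in the same libraries that the alternatives refit, so the shared signs are no added support. They do not stand for the reversed genes that are not named. The named genes follow a fixed rule, except those said to have been picked after their values were seen. For genes named by class of change, the rule required control and pear libraries not to overlap in each tissue whose effect passed. In both tissues control and pear did not overlap in 124 of the 129 and 58 of the 60 reversed genes. The same held in 2521 of the 11639 genes not past the interaction.

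Of 47 tested genes of fatty acid and hydrocarbon synthesis, 9 passed the interaction below 0 and 8 above (36.2%, against 12% of all genes tested). Of these, 3 fell in the mouthparts and rose in the tentacles and 1, a desaturase (GB48194), did the opposite. Fatty acid synthase (GB53412), which builds long-chain fatty acids, stood at 1498, 1510 and 1523 CPM in the control mouthparts and at 468, 523 and 492 CPM with pear. In the tentacles it stood at 299, 227 and 290.5 CPM in the controls and at 381, 380.1 and 376 CPM with pear. The groups did not overlap in either tissue. Its log2 change was -1.61 ± 0.09 (SE) in the mouthparts (adjusted p = 6.2e-09) and 0.48 ± 0.09 in the tentacles (adjusted p = 0.0012), and the interaction was -2.09 ± 0.12 (adjusted p = 5.1e-08). It was picked after its values were seen, and it reversed under all 24 alternatives.

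Transketolase (GB55537), an enzyme of the pentose phosphate pathway, moved in the same way. It stood at 523, 503 and 506 CPM in control mouthparts and 401, 373 and 387 CPM in pear mouthparts, and at 196, 179 and 214 CPM in control tentacles and 267, 276 and 254 CPM in pear tentacles. The changes were -0.40 ± 0.06 and 0.44 ± 0.06 in log2, with no overlap in either tissue and an adjusted p of 3.0e-05 for the interaction. Of 57 tested genes of central carbon metabolism, 12 passed the interaction below 0 and 4 above 0 (28.1%). Of the 57, 6 fell in the mouthparts and rose in the tentacles, as 0.975% of all genes did. The other 5 of those 6, picked after their values were seen, were glucose-6-phosphate isomerase (GB50954), 6-phosphogluconate dehydrogenase (GB52074), transaldolase (GB40779), citrate synthase (GB52073) and ATP-citrate synthase (GB54216), the last of which makes the acetyl-CoA that fatty acid synthesis uses.

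Glucose-6-phosphate isomerase changed by -1.20 ± 0.22 in the mouthparts and 0.62 ± 0.19 in the tentacles (GB50954, interaction adjusted p = 0.00090). The other 4 moved by smaller amounts and kept their reversal under 20 (ATP-citrate synthase), 19 (6-phosphogluconate dehydrogenase), 17 (transaldolase) and 11 (citrate synthase) of 24 alternatives. 6-phosphogluconate dehydrogenase (GB52074) changed by -0.19 ± 0.06 and 0.23 ± 0.06, and transaldolase (GB40779) by -0.21 ± 0.05 and 0.18 ± 0.05. ATP-citrate synthase (GB54216) changed by -0.24 ± 0.06 and 0.21 ± 0.06, and citrate synthase (GB52073) by -0.29 ± 0.10 and 0.36 ± 0.10. The reversal of glucose-6-phosphate isomerase did not pass without replicate 2 of the control tentacles or replicate 2 or 3 of the pear tentacles. Replicate 2 of the pear mouthparts overlapped the controls for citrate synthase (GB52073), at 892.9 CPM against 922, 878 and 909.5 CPM. The reversal of citrate synthase did not pass under RLE scaling, without replicate 1 or 2 of the control tentacles, without any 1 of the pear tentacles or control mouthparts replicates or without replicate 1 or 3 of the pear mouthparts. That of transaldolase (GB40779) did not pass with the replicate block, without replicate 2 of the control tentacles or without any 1 of the pear tentacles replicates. That of ATP-citrate synthase (GB54216) was lost without replicate 1 or 2 of the pear tentacles, and that of 6-phosphogluconate dehydrogenase (GB52074) without replicate 1 of the control mouthparts or replicate 2 of the pear mouthparts. On log2(FPKM + 1) the reversal no longer passed for these 4 genes, and in the whole list 6 genes passed the interaction above 0 and 6 below.

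Some sugar transporters also went this way. Facilitated trehalose transporters carry trehalose, the main sugar of insect haemolymph, across cell membranes. The one with the smallest interaction p, Tret1 (GB55301), stood at 143, 144 and 138 CPM in the control mouthparts, at 102, 99.02 and 97.1 CPM in the pear mouthparts, at 31.7, 36.8 and 32.4 CPM in the control tentacles and at 44.3, 45.4 and 43.4 CPM in the pear tentacles. Every pear library lay below the controls in the mouthparts and above them in the tentacles, with changes of -0.51 ± 0.06 and 0.40 ± 0.06 (interaction adjusted p = 6.9e-06). A further 3 trehalose transporter genes, picked because they reversed, are named Tret1 (GB55302), Tret1-2 homolog (GB54123) and Tret1-like (GB43737), while other genes with such names did not reverse. The 3 changed by -0.22 ± 0.05 and 0.53 ± 0.05 (GB55302), by -0.23 ± 0.07 and 0.75 ± 0.07 (GB54123), and by -0.44 ± 0.08 and 0.29 ± 0.08 (GB43737). None of these 3 reversals passed on log2(FPKM + 1), and they held in 22, 17 and 19 of 24 alternatives. That of GB54123 did not pass without replicate 1 or 2 of the control mouthparts or replicate 2 or 3 of the pear mouthparts. That of GB43737 did not pass without replicate 2 of the control tentacles or replicate 1 or 3 of the pear tentacles. Over all 94 sugar and amino acid transporters the calls were split, 15 above 0 and 16 below (33%). Of these 5 reversed, the fifth being an organic cation transporter (GB44073) at -0.68 ± 0.09 and 0.24 ± 0.08, which kept the reversal in 7 of 24 alternatives. Without replicate 1 of the pear tentacles 7 were above 0, and without replicate 2 there were 9.

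**Figure D2:**
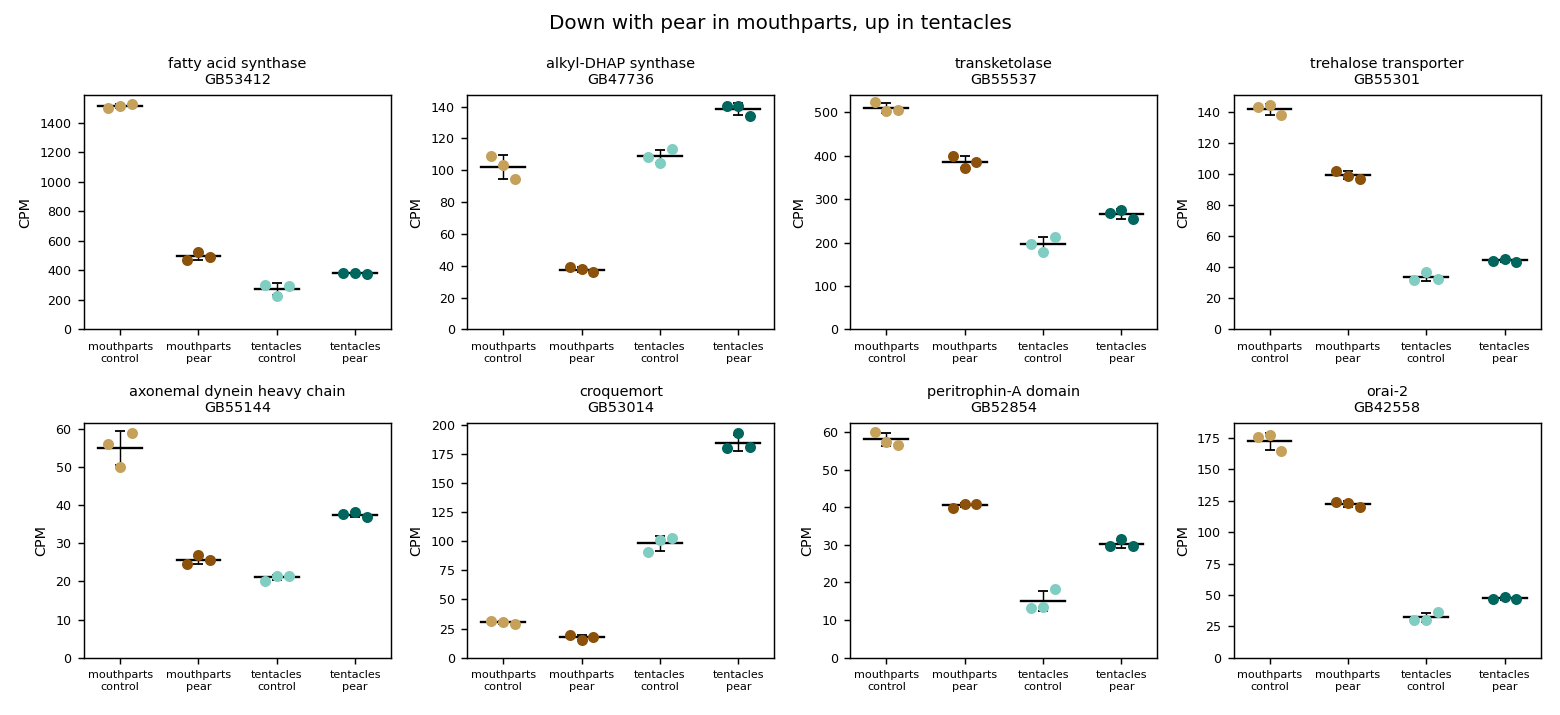
CPM of 8 genes in each of the 12 libraries, with the control and pear groups of the mouthparts (light and dark brown) and of the tentacles (light and dark green); lines and bars are the mean ± SD of 3 libraries and every vertical axis starts at 0. In each panel the 3 pear libraries lie below the 3 controls in the mouthparts and above them in the tentacles, as for fatty acid synthase at 468 to 523 CPM against 1498 to 1523 CPM in the mouthparts.

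Other genes that fell in the mouthparts and rose in the tentacles had varied functions. Alkyldihydroxyacetonephosphate synthase (GB47736), which starts the ether bond of ether lipids in peroxisomes, stood at 109, 103 and 94.3 CPM in the control mouthparts and 38.9, 38.1 and 35.8 CPM with pear, and at 108, 105 and 113 CPM in the control tentacles and 140.3, 141 and 134 CPM with pear. The controls of both tissues overlapped, and with pear it was lower in the mouthparts and higher in the tentacles, by -1.44 ± 0.06 and 0.35 ± 0.06. An axonemal dynein heavy chain (GB55144), a motor protein of cilia, stood at 56.2, 50.1 and 59 CPM and then 24.6, 26.9 and 25.6 CPM in the mouthparts, and at 20.2, 21.4 and 21.5 CPM and then 37.7, 38.2 and 36.8 CPM in the tentacles. The order of the tissues thus turned, since it was higher in the mouthparts in controls and higher in the tentacles with pear. Its interaction was -1.94 ± 0.10 (adjusted p = 1.4e-08).

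Croquemort (GB53014), in Drosophila a scavenger receptor with which blood cells take up dying cells, stood at 31.5, 30.4 and 29.3 CPM in the control mouthparts and 19.4, 15.4 and 18.02 CPM in the pear mouthparts. It rose in the tentacles, from 91.1, 101 and 103 CPM to 180.5, 193 and 181 CPM, with no overlap in either tissue. The changes were -0.79 ± 0.08 and 0.91 ± 0.07. It is 1 of 7 haemocyte genes, of which 6 fell and 0 rose in the mouthparts, against 16.8% and 16.9% of all genes. In the tentacles 4 of the 7 fell and 1, croquemort, rose, against 10.9% and 12.6% of all genes. Of the 7, 2 passed the interaction below 0 (28.6%). The summed level of that list was 1371 to 1513 CPM in control mouthparts, 658.8 to 677.8 CPM in pear mouthparts, 554.7 to 598.0 CPM in control tentacles and 587.3 to 611.3 CPM in pear tentacles. The part of blood cells in the change of croquemort was not tested.

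A gene with a chitin binding peritrophin-A domain (GB52854) fell from 59.98, 57.5 and 56.6 CPM to 39.9, 40.8 and 40.8 CPM in the mouthparts and rose from 13.3, 13.6 and 18.2 CPM to 29.6, 31.4 and 29.8 CPM in the tentacles. Orai-2 (GB42558), a channel that refills calcium stores, fell from 176, 177 and 165 CPM to 124, 123 and 120.1 CPM and rose from 30.1, 29.9 and 36.3 CPM to 46.5, 48.3 and 46.8 CPM. All pear libraries of both genes lay outside the range of their controls, with interactions of -1.53 ± 0.14 and -1.05 ± 0.10. The vesicular glutamate transporter (GB44987), which fills synaptic vesicles with glutamate, was far higher in the tentacles, at 977, 978 and 1102 CPM and with pear 1280, 1306 and 1250 CPM, than in the mouthparts, at 61.7, 58.98 and 59.5 CPM and with pear 39.5, 40.8 and 44.7 CPM. It changed by -0.53 ± 0.07 and 0.33 ± 0.06 in log2.

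Arginine metabolism gave a pair of reversed genes, picked after their values were seen. Argininosuccinate lyase (GB44774), which makes arginine, changed by -0.72 ± 0.11 in the mouthparts and 0.49 ± 0.12 in the tentacles, and arginase (GB51043), which splits it, by -0.95 ± 0.08 and 0.39 ± 0.09. Arginase stood at 40.3, 38.8 and 36.98 CPM in control mouthparts and 20.9, 18.3 and 20.8 CPM in pear mouthparts, and at 5.15, 5.47 and 5.72 CPM and 6.69, 7.62 and 7.05 CPM in the tentacles (GB51043). Neither gene had overlapping groups in either tissue, and both reversed under all 24 alternatives.

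Several reversed genes fell steeply in the mouthparts and rose little in the tentacles. A serotonin receptor (5-HT1, GB48005) stood at 20.99, 17.6 and 20.6 CPM in control mouthparts and 0.898, 1.32 and 1.08 CPM in pear mouthparts, and at 8.497, 9.56 and 9.69 CPM and 12.1, 12.3 and 11.9 CPM in control and pear tentacles. The mouthparts groups were far apart while the tentacles groups were close, and the changes were -4.17 ± 0.14 and 0.39 ± 0.11. A pair of genes with the haemolymph juvenile hormone binding protein domain (GB48492 and GB42557), which marks a family of carriers of small fatty molecules, shared the pattern. The first stood at 122, 108 and 98.6 CPM in control mouthparts and 7.803, 7.79 and 7.97 CPM with pear, against 8.17, 12.2 and 9.12 CPM and 14.1, 14.8 and 15.2 CPM in the tentacles. The second changed by -3.86 ± 0.09 and 0.50 ± 0.08 (GB42557), close to the -3.80 ± 0.13 and 0.58 ± 0.12 of the first. An acyltransferase domain gene (GB49078) went from 422, 371 and 298 CPM to 4.08, 2.52 and 3.02 CPM in the mouthparts, a change of -6.82 ± 0.17, and changed by 0.55 ± 0.15 in the tentacles. The reversal of this gene did not pass without replicate 2 of the control tentacles or replicate 2 or 3 of the pear tentacles, and that of the serotonin receptor without replicate 1 of the control tentacles or any 1 of the pear tentacles replicates. The juvenile hormone list that holds both was drawn up after values had been seen and had 8 of 38 genes below 0 and 3 above (28.9%).

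For genes that belong to the tentacles by their level, the change in the mouthparts started from a trace. The co-receptor that other odorant receptors need, odorant receptor 2 (GB40730), stood at 442, 377 and 448 CPM in the control tentacles and 573, 580.3 and 577 CPM in the pear tentacles. In the control mouthparts it stood at 5.34, 5.14 and 2.77 CPM, from 330 reads, and in the pear mouthparts it had no read. Pear libraries were therefore higher than all controls in the tentacles, by 0.45 ± 0.12 (adjusted p = 0.026), and below all controls in the mouthparts, where it was at least 163-fold lower, with 3 counts over the 3 libraries taken as the floor. The rise in the tentacles did not pass without replicate 1 or 2 of the control tentacles or any 1 of the pear tentacles replicates. Some odorant binding proteins were also low in the mouthparts. GB53369, GB55593 and GB53368 stood at 0.952%, 0.979% and 1.13% of their tentacles level in the control mouthparts and at 0.0282%, 0.0926% and 0.101% with pear, and odorant receptor 2 at 1.05% in the controls. GB55593 and GB53368 were picked after their values were seen, and the list as a whole differed from them. Its 18 tested members summed to 7694 to 8038 CPM in control and 10620 to 11100 CPM in pear mouthparts, and to 40650 to 46680 CPM and 49000 to 50150 CPM in control and pear tentacles. In the mouthparts 7 members rose and 6 fell, against 16.9% and 16.8% of all genes.

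The odorant binding protein GB53369 stood at 9049, 11080 and 10750 CPM in the control and 10710, 11460 and 11190 CPM in the pear tentacles, where the groups overlapped and the change of 0.11 ± 0.12 did not pass (adjusted p = 0.54). In the mouthparts it stood at 111, 104 and 78.9 CPM and then 3.72, 2.69 and 2.99 CPM, a change of -4.96 ± 0.16. Of 143 odorant receptors, 29 passed the interaction below 0 and 3 above (22.4% in all). In the mouthparts 38 receptors fell and 10 rose, against 16.8% and 16.9% of all genes. In the tentacles 8 receptors rose and 2 fell, against 12.6% and 10.9% of all genes, so the receptors passed there less often than genes at large. The list's median interaction was -0.31. On log2(FPKM + 1) 18 passed below 0 and 2 above, 15 fell and 8 rose in the mouthparts, and 26 rose and 7 fell in the tentacles. With at least 1 CPM in both tissues 18 receptors were left, of which 4 passed below 0 and 2 above. No member was at 0 reads in the tentacles, whereas 15 were at 0 over the 3 control mouthparts libraries and 20 over the 3 pear mouthparts libraries, and 50 had 3 counts or fewer in a group. The part that RNA of tentacles-type cells in the control mouthparts libraries has in these results was not tested. When genes whose control level in a tissue was under 2% of that in the other were left out, a choice made after seeing the data, 1527 genes passed the interaction and 179 reversed.

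**Figure D3:**
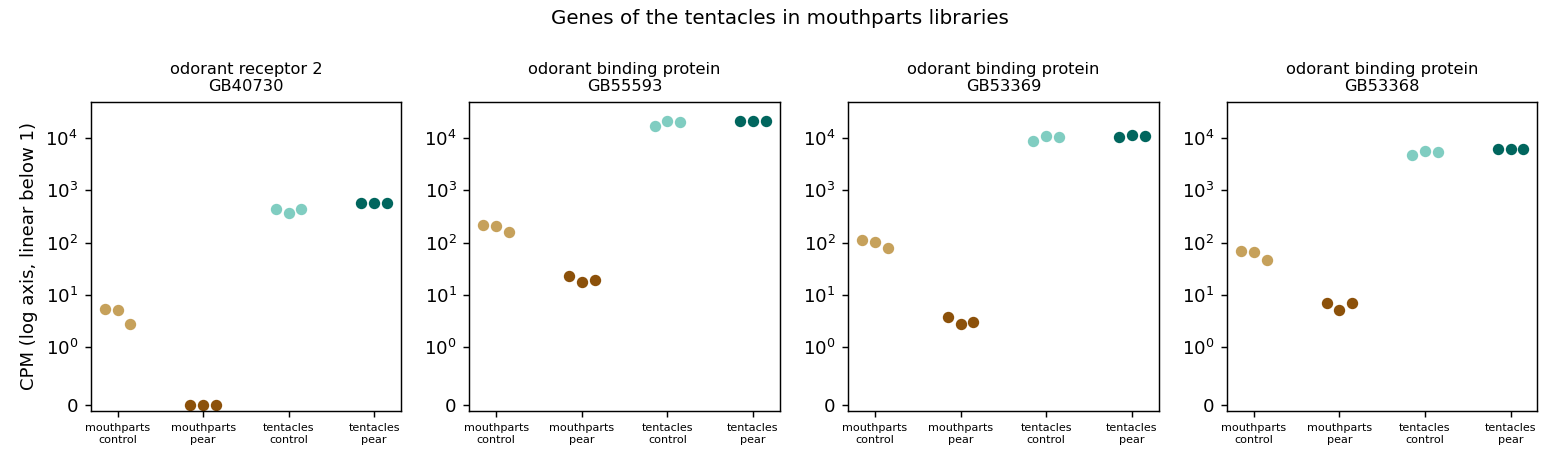
CPM of odorant receptor 2 and 3 odorant binding proteins in each of the 12 libraries, on a log axis that is linear below 1; colours as for the 8 reversed genes above. The mouthparts libraries lie far below the tentacles libraries, the pear mouthparts lie below the control mouthparts in every panel, and odorant receptor 2 is at 0 in all 3 pear mouthparts libraries.

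A receptor named 82a-like (GB43024) and the homeobox factor Nkx-2.4 (GB44663) were near 0 in a tissue and get no fitted fold. The receptor had 12 reads over the control mouthparts and 0 over the pear mouthparts, at least 5.93-fold lower, and stood at 14.2, 8.41 and 14.4 CPM and 20.7, 20.2 and 22.7 CPM in the tentacles. Nkx-2.4 (GB44663) stood at 11, 10.6 and 7.94 CPM in the control mouthparts and 0.128, 0.115 and 0.194 CPM with pear, and had 0 reads in the control and 13 in the pear tentacles, at least 5.47-fold higher. The rise in the tentacles is thus one from no read to a trace.

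Genes that rose in the mouthparts and fell in the tentacles included enzymes of sulfation. The sulfotransferase 4A1 gene (GB50060), named for a family of enzymes that attach sulfate groups, stood at 15.4, 21.5 and 21.4 CPM in the control mouthparts and 50.9, 54.3 and 48.1 CPM with pear. In the tentacles it was low, at 0.913, 1.098 and 1.28 CPM in the controls and 0.235, 0.2203 and 0.3302 CPM with pear. The changes were 1.40 ± 0.12 (adjusted p = 1.1e-06) and -2.03 ± 0.28 (adjusted p = 0.00015), so that its interaction of 3.43 ± 0.30 came from opposite changes that were both over 2-fold. The gene for the synthase that makes the sulfate donor of such enzymes, PAPS synthase 2 (GB48066), stood at 19.9, 21.3 and 22.3 CPM and then 34.7, 38.6 and 35.8 CPM in the mouthparts. In the tentacles it went from 2.35, 3.21 and 3.58 CPM to 1.11, 1.13 and 1.35 CPM. It changed by 0.78 ± 0.12 and -1.33 ± 0.16 (interaction adjusted p = 7.7e-06). No groups overlapped in either gene, which the rule that named them required. Both reversed under every alternative in which they were tested, which were 24 for PAPS synthase 2 and 23 for the sulfotransferase.

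The extracellular matrix protein ig-h3 (GB46973) rose in the mouthparts from 2.56, 3.41 and 3.36 CPM to 7.57, 7.68 and 7.805 CPM and fell in the tentacles from 22.4, 26.5 and 23.3 CPM to 19.6, 19.4 and 19.1 CPM. The homeobox factor invected (GB55332), a partner of engrailed in the hind part of Drosophila segments, rose from 3.26, 3.41 and 3.32 CPM to 8.37, 6.33 and 6.62 CPM and fell from 6.89, 8.85 and 8.62 CPM to 6.13, 6.36 and 6.18 CPM. In both genes the change in the mouthparts, 1.31 ± 0.12 and 1.09 ± 0.14, was larger than that in the tentacles, -0.31 ± 0.10 and -0.38 ± 0.13. Its relative E30 (GB55322), picked after its values were seen, changed by 1.09 ± 0.16 in the mouthparts and by -0.38 ± 0.15 in the tentacles, where it did not pass (adjusted p = 0.090). The reversal of invected held in 8 of 24 alternatives and that of ig-h3 in 16, and the fall in the tentacles had an adjusted p of 0.046 and 0.034. Neither passed without replicate 2 of the control tentacles or any 1 of the pear tentacles replicates, and invected also failed without replicate 3 of the control tentacles, any 1 of the control mouthparts replicates or replicate 3 of the pear mouthparts.

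Single libraries weighed on the other members. A titin-like gene (GB47948), of the giant elastic protein of muscle, stood at 144, 130.5 and 140.2 CPM in the control mouthparts and 219, 379 and 210.5 CPM with pear, where replicate 2 was far above the other libraries, and fell from 119.5, 116 and 121 CPM to 74.8, 73.5 and 79.5 CPM in the tentacles. It changed by 0.96 ± 0.18 and -0.65 ± 0.19. A gene with a DUF745 domain (GB46817) stood at 9.55, 8.27 and 9.83 CPM and then 12.9, 19.6 and 33.99 CPM in the mouthparts, where the pear libraries were wide apart, and at 21.7, 20.9 and 24.1 CPM and then 12.2, 12.9 and 13.1 CPM in the tentacles. Its reversal held in 12 of 24 alternatives, but not without any 1 of the tentacles or control mouthparts libraries or without replicate 2 of the pear mouthparts. That of the titin-like gene held in 17, including the one without replicate 2 of the pear mouthparts, but not without any 1 tentacles library.

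**Figure D4:**
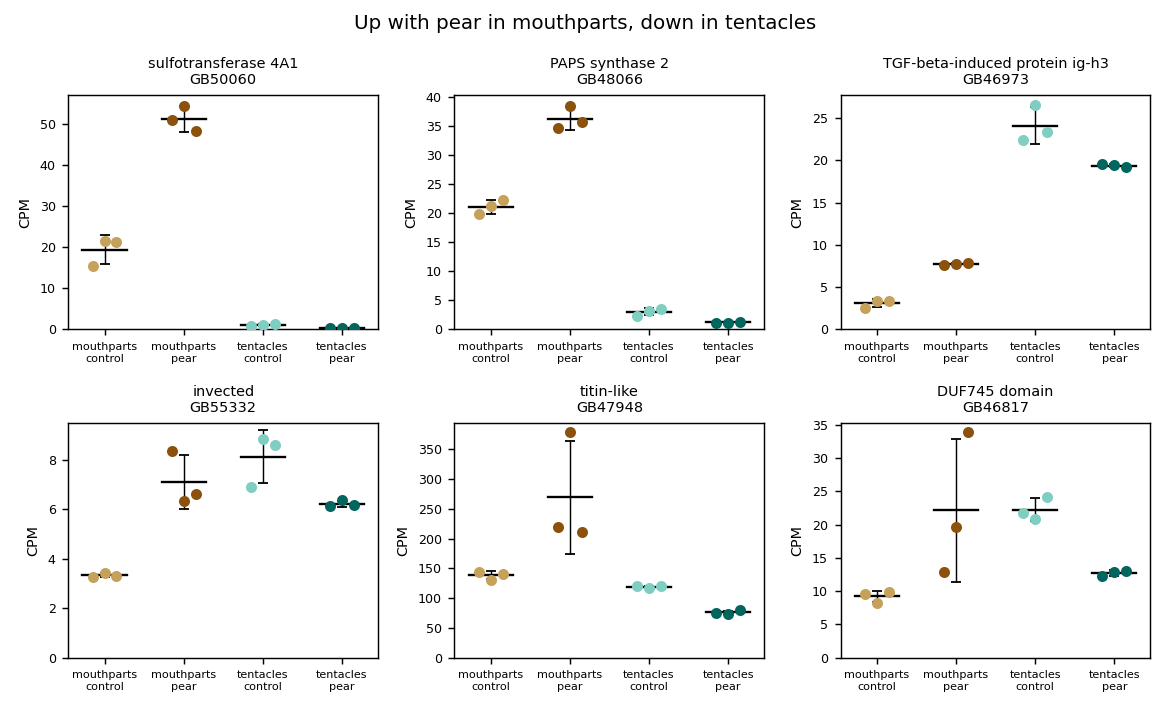
CPM of 6 genes in each of the 12 libraries, drawn as for the genes that fell in the mouthparts. The 3 pear libraries lie above the 3 controls in the mouthparts and below them in the tentacles, with the widest spread for the titin-like and the DUF745 genes in the pear mouthparts. The rule that named these 6 genes required groups without overlap, so this separation is no added support.

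Among genes that changed in the same direction in both tissues, 76 fell more in the mouthparts, 31 fell more in the tentacles, 78 rose more in the mouthparts and 24 rose more in the tentacles. Alpha-amylase (GB49854), a starch-splitting gland enzyme, stood at 432, 538 and 883 CPM in control mouthparts and 0.359, 0 and 0.277 CPM with pear, and at 3.78, 4.42 and 5.13 CPM and 0.147, 0 and 0.5404 CPM in the tentacles. Pear libraries were near 0 in both tissues, so the size of its interaction (adjusted p = 0.044) rests on 24 and 23 reads over the pear groups and did not pass in 12 of 24 alternatives. Phenoloxidase 2 (GB44996), which starts melanin formation in the blood, fell from 213, 194 and 159 CPM to 9.55, 8.39 and 8.497 CPM in the mouthparts and from 8.02, 11.5 and 8.32 CPM to 3.87, 3.27 and 3.51 CPM in the tentacles, by -4.42 ± 0.14 and -1.39 ± 0.16.

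A receptor for cardioacceleratory peptide (GB54316), a neurohormone that speeds the insect heart, fell from 39.3, 37.98 and 42.5 CPM to 0.693, 0.745 and 0.803 CPM in the mouthparts and from 4.48, 3.89 and 4.41 CPM to 1.496, 1.32 and 1.44 CPM in the tentacles. The gene annotated as its like (GB54315), picked after its values were seen, reversed, at -0.75 ± 0.09 and 0.47 ± 0.08. The cytochrome P450 4aa1-like gene (GB49626), of a family that oxidises hormones and foreign compounds, went from 362, 314 and 257 CPM to 5.37, 7.25 and 6.14 CPM in the mouthparts and changed by -0.97 ± 0.29 in the tentacles. Apolipophorin-III (GB55452), a lipid carrier of haemolymph, changed by -2.38 ± 0.10 and -0.92 ± 0.11.

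Rises shared by both tissues were led by gudu (GB49219), an armadillo repeat protein known in Drosophila from sperm formation. It stood at 0.983, 1.65 and 1.09 CPM in control mouthparts and 29.4, 29.9 and 29.1 CPM with pear, and at 9.73, 10.9 and 11.6 CPM and 40.6, 40.3 and 36.4 CPM in the tentacles. The tissues were thus far apart in the controls and near each other with pear, with changes of 4.57 ± 0.14 and 1.86 ± 0.11 and an interaction of 2.70 ± 0.18. Glutamate receptor 2 (GB54881), which receives the transmitter glutamate, changed by 1.44 ± 0.09 and 0.24 ± 0.08. Tyrosine 3-monooxygenase (GB40967), which turns tyrosine into the precursor of dopamine, picked after its values were seen, changed by 1.21 ± 0.06 and 0.52 ± 0.06.

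Apidaecins, antimicrobial peptides of the honey bee, rose more in the tentacles. GB47546 stood at 2.65, 5.08 and 3.16 CPM in the control tentacles and 22.6, 28.2 and 26.6 CPM with pear, and at 95.6, 98.1 and 112 CPM and 176, 135 and 139.8 CPM in the mouthparts. The second (GB46236) changed by 1.88 ± 0.15 in the tentacles and 0.42 ± 0.12 in the mouthparts, and the third (GB51306) by 2.64 ± 0.39 in the tentacles and, without passing, -0.71 ± 0.28 in the mouthparts (adjusted p = 0.074). All 3 were higher with pear in every tentacles library, and as close relatives they may share reads. The 26 immune effectors and pathway genes had 6 below 0 and 1 above (26.9%), and 5 on each side on log2(FPKM + 1). A chitinase-3-like gene (GB42434), from the family of chitin-splitting enzymes, fell more in the tentacles, from 4.303, 4.31 and 5.46 CPM to 0.704, 0.409 and 0.6304 CPM, than in the mouthparts, from 8.29, 5.74 and 6.304 CPM to 4.54, 3.87 and 4.51 CPM.

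Royal jelly genes mostly fell in both tissues. Of 33 tested royal jelly and gland genes, 22 fell in the mouthparts and 18 in the tentacles, against 16.8% and 10.9% of all genes. The interaction passed below 0 in 5 and above 0 in 4 (27.3%). On log2(FPKM + 1) 13 passed below 0 and 3 above. On the count scale those above were 1 or 2 without replicate 1 or 2 of the pear tentacles, replicate 1 or 3 of the control mouthparts or replicate 3 of the pear mouthparts, and those below were 3 without replicate 1 or 3 of the pear tentacles. Their summed level was 104200 to 112700 CPM in control mouthparts and 11400 to 13160 CPM with pear, and 18130 to 28600 CPM in control tentacles and 1271 to 1294 CPM with pear. The member of the rule, a gene with the major royal jelly protein domain (GB55206), stood at 1923, 2057 and 1951 CPM and 4.67, 3.15 and 3.65 CPM in the mouthparts and at 389, 592 and 520 CPM and 0.4401, 0.441 and 0.2702 CPM in the tentacles, and its interaction of 1.33 ± 0.36 did not keep its call in 9 alternatives. The alpha-glucosidase Hbg3 (GB43247), which splits sucrose in the gland's secretion, stood at 4716, 5219 and 7921 CPM and then 669, 645 and 653 CPM in the mouthparts, a change of -3.18 ± 0.16. In the tentacles it stood at 127, 149 and 153 CPM and then 104, 107 and 108 CPM, a change of -0.42 ± 0.15 that did not pass (adjusted p = 0.060).

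Of the genes whose effect passed in the mouthparts only, several were much lower with pear. The cytochrome P450 4C1 gene (GB47270) stood at 132, 124 and 100 CPM in the control mouthparts and 2.901, 3.41 and 3.04 CPM with pear, and at 19.9, 22.1 and 21.5 CPM and 21.9, 19.1 and 21.5 CPM in the tentacles, where the groups overlapped. Its interaction was -5.24 ± 0.16 (adjusted p = 4.0e-11). A pair named cytochrome P450 6a13 went from 14.8, 13.5 and 14.8 CPM to 3 reads over the group (GB49877, a ratio of 527 with an exact 95% interval of 180 to 2560) and from 20.6, 18.6 and 20.8 CPM to 4 reads over the group (GB55257). Both stood at 0.358 CPM or less in every tentacles library. Of 100 detoxification genes, 21 passed below 0 and 7 above (28%, against 12% of all genes), or 18 and 11 on log2(FPKM + 1). On the count scale those above were 3 or 4 without replicate 3 of the control tentacles, any 1 of the pear tentacles replicates, replicate 1 or 3 of the control mouthparts or replicate 2 or 3 of the pear mouthparts.

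Eye genes also differed. An arrestin homolog (GB51068), which shuts off light-activated opsin, went from 26.9, 27.2 and 22.9 CPM to 5.904, 3.81 and 4.98 CPM in the mouthparts and was at 5.22 ± 0.463 CPM (SD, n = 3) in control and 5.01 ± 0.196 CPM in pear tentacles, where the change did not pass. Long-wavelength opsin (GB50196), picked after its values were seen, fell in both tissues, from 40.6, 42.6 and 36.6 CPM to 0.847, 1.09 and 1.14 CPM in the mouthparts and by -2.31 ± 0.18 in the tentacles. The 11 eye genes summed to 140.9 to 152.9 CPM in control mouthparts and 85.66 to 99.13 CPM in pear mouthparts, and to 461.2 to 508.1 CPM and 494.1 to 511.5 CPM in control and pear tentacles. Of them, 4 passed the interaction below 0 and 2 above (54.5%). In the mouthparts 4 of the eye genes fell and 2 rose, with a median change of 0.03 in log2 over the list. In the tentacles 3 fell and 0 rose, and 1 of those that rose in the mouthparts fell in the tentacles. Of all genes 16.8% fell and 16.9% rose in the mouthparts, and 10.9% fell and 12.6% rose in the tentacles. Fat body storage genes summed to 9485 to 9574 CPM in control and 6778 to 7224 CPM in pear mouthparts, and to 3532 to 4004 CPM and 4648 to 4778 CPM in the tentacles, with 6 of 19 below 0 and 0 above (31.6%). The part of eye, fat body or gland tissue in the mouthparts falls was not tested.

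Further genes fell in the mouthparts without passing in the tentacles. A serine protease (GB41408) changed by -4.08 ± 0.22, a troponin C-like gene (GB48216), for a calcium sensor of muscle, by -2.30 ± 0.14, and a venom acid phosphatase (GB41339) by -2.15 ± 0.15. Cytochrome c oxidase assembly factor 7 (GB40261) changed by -0.70 ± 0.06 in the mouthparts. Rises that passed in the mouthparts only were led by genes with few reads there. An odorant receptor domain gene (GB52404) had 0 reads over the control and 10 over the pear mouthparts, at least 2.25-fold higher, and a trichohyalin-plectin-homology domain gene (GB42962) had 2 and 18, a ratio of 6.07 with an exact 95% interval of 1.45 to 53.9. The tRNA ligase for glutamate and proline (GB47572) rose by 0.54 ± 0.09 (adjusted p = 0.00026).

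Other genes had an effect that passed in the tentacles only. There the nuclear receptor NR4A2 (GB40074), whose insect relative is switched on by activity in neurons, stood at 37.1, 44.97 and 44.99 CPM in the controls and 112, 108 and 119.8 CPM with pear. It stood at 21.2, 24.9 and 24.7 CPM and 21.8, 29.9 and 19.9 CPM in the mouthparts, where the groups overlapped. Its changes were 1.42 ± 0.13 and 0.02 ± 0.13, and the interaction was -1.41 ± 0.18 (adjusted p = 0.00023). It and HR38 (GB49295) were the 2 of 36 nuclear receptor and immediate early genes that passed the interaction (5.56%), both below 0, and 4 passed without replicate 2 of the control tentacles.

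The clock gene period (GB52078), a repressor in the daily molecular clock, stood at 62.2, 77.8 and 65.6 CPM in control tentacles and 42.1, 41.9 and 41.9 CPM with pear. In the mouthparts it stood at 62.6, 65.8 and 65.05 CPM and 71.7, 76.3 and 73.1 CPM, where a change of 0.19 ± 0.07 did not pass (adjusted p = 0.055). The pear tentacles libraries were all below their controls, by -0.71 ± 0.07. Sampling hours are not among the labels. Glucose dehydrogenase (GB44548), which oxidises glucose, fell from 75.8, 107 and 100.1 CPM to 36.1, 34.8 and 36.1 CPM in the tentacles, by -1.40 ± 0.10. Malic enzyme (GB49966), a source of the reducing power that fatty acid synthesis uses, changed by -0.69 ± 0.16 in the tentacles and, without passing, by 0.45 ± 0.19 in the mouthparts. A gustatory receptor (GB53864), for taste, changed by -0.66 ± 0.20 in the tentacles and 0.38 ± 0.19 in the mouthparts (adjusted p = 0.15).

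Some gene groups had most of their calls on 1 side of the interaction. Muscle genes had more above 0, with 15 of 41 tested members above and 2 below (41.5% past, against 12% of all genes) and a median of 0.53. The list had 29 above 0 and 2 below on log2(FPKM + 1). In the tentacles, on the count scale, 24 of the 41 fell and 2 rose, against 10.9% and 12.6% of all genes. In the mouthparts 6 rose and 8 fell, against 16.9% and 16.8% of all genes. Muscle myosin heavy chain (GB51653), the motor protein of contraction, stood at 1530, 1790 and 1684 CPM in control tentacles and 1010, 1013 and 1012 CPM with pear, and at 12840, 12780 and 12430 CPM and 12510, 20710 and 11670 CPM in the mouthparts. Troponin T (GB51214), a part of the calcium switch of muscle, changed by -1.002 ± 0.15 in the tentacles and, without passing, -0.16 ± 0.14 in the mouthparts. Titin (GB47977) changed by 0.48 ± 0.15 in the mouthparts and, without passing, -0.36 ± 0.15 in the tentacles. These 3 were picked after their values were seen. The summed level was 57580 to 60260 CPM in control mouthparts, 52520 to 81220 CPM in pear mouthparts, 7441 to 8472 CPM in control tentacles and 5305 to 5487 CPM in pear tentacles. Without replicate 2 of the pear mouthparts 17 passed above 0 and 2 below, and 15 fell in the mouthparts in place of 8.

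Cytosolic ribosomal proteins and oxidative phosphorylation had calls below 0 and none above on the count scale. The same held, with fewer calls, for the proteasome, fat body storage, haemocyte, and nuclear receptor and immediate early gene lists. Of 83 cytosolic ribosomal proteins, which build the ribosome, 25 passed below 0 and 0 above (30.1%), with a median interaction of -0.31. In the mouthparts 18 fell and 2 rose, against 16.8% and 16.9% of all genes tested. In the tentacles 16 rose and 0 fell, against 12.6% and 10.9% of all genes. Ribosomal protein S4 (GB51072) stood at 875, 846 and 886 CPM in control mouthparts and 766, 756 and 770 CPM with pear, and at 460, 484 and 514 CPM and 572, 578 and 556 CPM in the tentacles. No groups overlapped, and the changes were -0.19 ± 0.05 and 0.23 ± 0.05. The reversal of S4 held in 19 of 24 alternatives. It did not pass without replicate 1 or 3 of the control mouthparts, with the replicate block or on either FPKM scale. S3 (GB55639) and L18 (GB50817), picked after their values were seen, also reversed, with interactions of -0.42 ± 0.09 and -0.51 ± 0.11, but did so in 8 and 12 of 24 alternatives. The 72 mitochondrial ribosomal proteins had 0 past the interaction in either direction by edgeR. The one of smallest p, S23 (GB47724), had an interaction of 0.60 ± 0.20 with an adjusted p of 0.076, and on log2(FPKM + 1) 7 passed above 0.

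Of 106 genes of oxidative phosphorylation, the chain that makes ATP in mitochondria, 23 passed below 0 and 0 above (21.7%), with a median of -0.20. In the mouthparts 38 fell and 1 rose, against 16.8% and 16.9% of all genes. In the tentacles 8 fell and 5 rose, against 10.9% and 12.6% of all genes. A pair of ATP synthase subunits, picked after their values were seen, reversed. The lipid-binding subunit (GB40457) changed by -0.50 ± 0.08 and 0.26 ± 0.08, and the delta subunit (GB51086) by -0.28 ± 0.07 and 0.25 ± 0.07. The reversal of the lipid-binding subunit held in 18 of 24 alternatives. It did not pass with the replicate block, without replicate 1 or 2 of the control tentacles or any 1 of the pear tentacles replicates. That of the delta subunit held in 20, but not without replicate 1 or 3 of the pear tentacles or on either FPKM scale. Of 42 proteasome genes, which degrade proteins, 5 passed below 0 and 0 above (11.9%, near the 12% of all genes). Beta type-1 (GB48111) changed by 0.15 ± 0.05 in the tentacles and, without passing, -0.12 ± 0.05 in the mouthparts. These counts lean on single libraries and on the scale. Leaving out 1 library gave 10 to 14 ribosomal calls without replicate 1 of the control tentacles, any pear tentacles replicate, replicates 1 or 3 of the control mouthparts or replicate 3 of the pear mouthparts, and 16 without replicate 2 of the pear mouthparts. For oxidative phosphorylation 10 to 15 passed below 0 without any 1 of the pear tentacles replicates, replicate 1 or 3 of the control mouthparts or replicate 1 or 3 of the pear mouthparts, and 1 passed above 0 without replicate 1 of the pear mouthparts. For the proteasome the count was 13 without replicate 3 of the control tentacles and 0 to 3 without any other library but replicate 2 of the control tentacles. On log2(FPKM + 1) 2 ribosomal genes passed below 0 and 1 above, with a median of -0.16 where all genes had 0.13, and 7 of oxidative phosphorylation passed below 0 and 5 above.

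**Figure D5:**
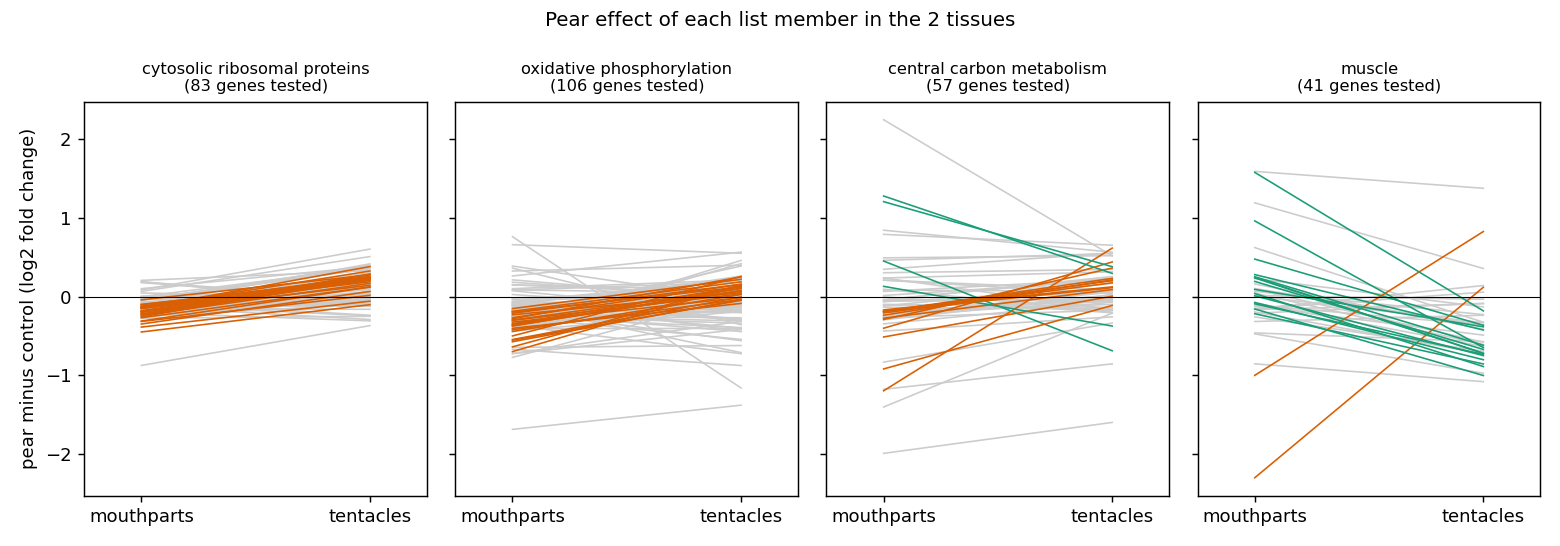
Each line is a gene of the list named above it, joining its log2 fold change with pear in the mouthparts to that in the tentacles; orange marks an interaction past the threshold below 0, green one above 0 and grey one not past it. Ribosomal, respiration and carbon metabolism lines that pass mostly climb from below 0 in the mouthparts towards or above 0 in the tentacles, and muscle lines mostly drop.

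Counts of signalling genes past the interaction are read against the 12% of all genes. Of 85 genes of neurons and synapses 14 passed below 0 and 7 above (24.7%). In the mouthparts 26 of them rose and 12 fell, against 16.9% and 16.8% of all genes. In the tentacles 24 of them rose and 3 fell, against 12.6% and 10.9% of all genes. Without replicate 2 of the pear tentacles 9 passed below 0 and 5 above, and on log2(FPKM + 1) 10 below and 14 above. Their summed level was 3411 to 3563 CPM in control mouthparts, 3554 to 3753 CPM with pear, and 5663 to 5865 CPM and 6566 to 6714 CPM in the tentacles. Of 26 biogenic amine genes 5 passed below 0 and 2 above (26.9%). Beside the serotonin receptor, the vesicular amine transporter (GB42802), which loads vesicles with amines, changed by -0.56 ± 0.06 and 0.18 ± 0.06, and a histamine H2 receptor-like gene (GB42323) by -0.70 ± 0.17 and 0.54 ± 0.11. Both were picked after their values were seen. The reversal of the amine transporter held in 14 of 24 alternatives. It did not pass with all 18 libraries, with the replicate block, on either FPKM scale, without replicate 1 or 2 of the control tentacles, without any 1 of the pear tentacles replicates or without replicate 3 of the pear mouthparts. The reversal of the histamine receptor-like gene was lost on log2(FPKM + 1) and without both mouthparts replicates 2. This gene was low in the mouthparts, with a mean of 1.28 CPM in controls and 0.786 CPM with pear. Its means in the tentacles were 10.6 and 15.38 CPM. The shares of ion channels, homeobox factors and cilium genes were near that of all genes. Of 100 ion channels 9 passed above 0 and 6 below (15%), of 77 homeobox factors 5 above and 3 below (10.4%), and of 91 cilium and axoneme genes 8 above and 6 below (15.4%). Homeobox factors on log2(FPKM + 1) were 14 above and 2 below and cilium genes 15 above and 5 below. On the count scale 2 of 8 clock genes passed above 0 and 1 below (37.5%). The 4 ionotropic chemosensory receptors had 0 past the interaction, and IR93a (GB50521), an ionotropic receptor, had an interaction of -0.80 ± 0.32 (adjusted p = 0.13). A gene listed by the chemosensory protein domain (GB52326), whose KEGG hit is transcriptional adapter 2B, changed by -1.30 ± 0.18 and -0.31 ± 0.09. Its mean was low in the mouthparts, at 3.775 CPM in controls and 1.528 CPM with pear, against 264.2 and 212.6 CPM in the tentacles. Its interaction did not pass in 2 of 24 alternatives. Of the 6 genes in that list 1 passed above 0 and 1 below (33.3%).

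Stress genes fell more often than they rose. Of 84 heat shock and endoplasmic reticulum folding genes 31 fell and 5 rose in the mouthparts, and 25 fell and 0 rose in the tentacles. Of all genes 16.8% fell in the mouthparts and 10.9% in the tentacles. The interaction passed below 0 in 8 and above 0 in 7 (17.9%, against 12% of all genes), or in 6 and 15 on log2(FPKM + 1). On the count scale those above were 2 to 4 without replicate 1 or 2 of the control tentacles, any 1 of the pear tentacles replicates, replicate 2 or 3 of the control mouthparts or replicate 1 or 3 of the pear mouthparts. Heat shock protein 83 (GB45495), the HSP90 chaperone that folds signalling proteins, stood at 251, 252 and 248 CPM in control mouthparts and 129.6, 119 and 134 CPM with pear, and at 197, 179 and 193 CPM and 134, 135 and 135 CPM in the tentacles. It fell by more in the mouthparts, with -0.97 ± 0.05 against -0.49 ± 0.05 in log2. Of 41 tRNA synthetases 12 fell and 3 rose in the mouthparts and 10 fell and 0 rose in the tentacles, and 1 passed the interaction (2.44%). Of 89 cuticle and chitin genes 12 passed below 0 and 7 above (21.3%), but 9 below and 16 above on log2(FPKM + 1). Of 60 serine proteases and serpins 12 passed below and 3 above (25%), but 6 on each side on log2(FPKM + 1). On the count scale 4 of 25 venom gland genes passed below 0 and 3 above (28%), and of 18 odorant binding proteins 4 below and 3 above (38.9%). Of 13 genes of melanin and dopamine synthesis 3 passed on each side (46.2%). Of 26 neuropeptide and receptor genes 4 passed below and 2 above (23.1%), and of 11 gustatory receptors 1 above and 0 below (9.09%). Single libraries moved some of these counts. Cuticle genes below 0 were 7 without replicate 1 of the pear tentacles, serine proteases above 0 were 5 without replicate 1 of the control tentacles, and odorant binding proteins above 0 were 6 without replicate 2 of the control tentacles and 5 without replicate 2 of the pear mouthparts. Biogenic amine genes above 0 were 4 without replicate 2 of the control tentacles, homeobox factors were 3 above and 1 below without replicate 2 of the control mouthparts, and cilium genes above 0 were 4 or 5 without replicate 1 of the control tentacles, any 1 of the pear tentacles replicates or replicate 3 of the pear mouthparts.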

How the data were processed

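Read counts and FPKM values per gene, deposited by the authors for 18 libraries, were used. Per the labels' protocols, RNA was extracted with a column kit and made into mRNA libraries with a SMARTER kit. HISAT2 is the aligner named in the submitters' processing notes. Its version, the build and annotation, and the counter are not given in the sources used. How the authors' FPKM values were scaled is not stated. A further 6 columns of per-sample values were not used.

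Counts of 12 libraries were fitted together in edgeR 4.0.16 (R 4.3.3) by the robust quasi-likelihood test, with TMM scaling, the edgeR expression filter by group and no further covariate. Adjusted p-values are Benjamini-Hochberg over the 13226 genes tested, with a threshold of 0.05. Errors after ± are SE for log2 changes, derived from the test statistic, and SD for levels in CPM. The FPKM alternative used limma 3.58.1 on log2(FPKM + 1) and log2(FPKM + 0.1), and DESeq2 1.42.0 was another. Both alternatives on near-0 genes and on genes under 2% of the other tissue's level were added after seeing the data. On simulated counts with 100 genes changed per fold size among 13074, 62% were recovered at 1.5-fold and 90% at 2-fold, with 5.59% of 161 calls false. The changed genes had at least 5 CPM in every group, and each gene was given the same spread in all 4 groups. These rates therefore do not carry over to genes near 0 or to the unequal replicate spread of the real libraries.

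Names come from a KEGG hit with an e-value up to 1e-10 or from a protein domain in the table, and may stand for a relative, since 1522 genes share a hit. Genes that share reads with near-identical copies are uncertain. The genes, lists and tests were chosen with earlier results of these data known. Named genes are, per class of change, those of largest interaction with at least 5 CPM in a group and no overlap of libraries in each tissue that passes (6 per reversed direction, up to 2 for each other class), plus the member of smallest interaction p of each list. Floors of 3 counts and exact 95% intervals cover counting error only.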

Additional observations from a re-analysis of the deposited data

Results flagged for a closer look

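The 1587 genes past the interaction are flagged as a group, since the test of the difference between the tissues itself passed for each, and so are the 189 that changed in opposite directions (edgeR quasi-likelihood test with Benjamini-Hochberg adjustment). Each named gene past the interaction is flagged for the same reason, and the values are the mouthparts change minus the tentacles change in log2.

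Among genes that rose in the mouthparts and fell in the tentacles, the value was 3.43 for the sulfotransferase (GB50060), 2.11 for PAPS synthase 2 (GB48066) and 2.07 for the DUF745 gene (GB46817). It was 1.62 for ig-h3 (GB46973), 1.61 for the titin-like gene (GB47948) and 1.48 for invected (GB55332).

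Among genes that went the opposite way, it was -7.36 for the acyltransferase (GB49078), -4.55 for the serotonin receptor (GB48005), -4.38 and -4.35 for the juvenile hormone binding domain genes (GB48492 and GB42557). It was -2.09 for fatty acid synthase (GB53412), -1.79 for the ether lipid enzyme (GB47736), -1.81 for glucose-6-phosphate isomerase (GB50954) and -0.84 for transketolase (GB55537). ATP-citrate synthase (GB54216) had -0.45, 6-phosphogluconate dehydrogenase (GB52074) -0.42, transaldolase (GB40779) -0.38 and citrate synthase (GB52073) -0.65. The trehalose transporters had -0.91 (GB55301), -0.75 (GB55302), -0.98 (GB54123) and -0.73 (GB43737), and the organic cation transporter -0.92 (GB44073). Axonemal dynein (GB55144) had -1.94, croquemort (GB53014) -1.70, the peritrophin-A gene (GB52854) -1.53, orai-2 (GB42558) -1.05 and the glutamate transporter (GB44987) -0.86. Arginase (GB51043) had -1.34, argininosuccinate lyase (GB44774) -1.22, the peptide receptor-like gene (GB54315) -1.22, the histamine receptor-like gene (GB42323) -1.23 and the amine transporter (GB42802) -0.74. Ribosomal proteins had -0.41 (GB51072), -0.42 (GB55639) and -0.51 (GB50817), and ATP synthase subunits -0.76 (GB40457) and -0.53 (GB51086).

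Genes that changed in the same direction had 2.70 for gudu (GB49219), 1.20 for glutamate receptor 2 (GB54881), 0.69 for tyrosine 3-monooxygenase (GB40967) and -7.22 for amylase (GB49854). The P450 4aa1-like gene (GB49626) had -4.67, phenoloxidase 2 (GB44996) -3.03, apolipophorin-III (GB55452) -1.47, the peptide receptor (GB54316) -4.16 and opsin (GB50196) -2.98. Apidaecins had -2.25 (GB47546) and -1.47 (GB46236), the chitinase-like gene 2.34 (GB42434), the royal jelly domain gene 1.33 (GB55206), heat shock protein 83 -0.48 (GB45495) and the chemosensory domain gene -0.99 (GB52326).

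Of genes past in the mouthparts only, the P450 genes had -7.89 (GB55257) and -5.24 (GB47270), odorant binding proteins -5.07 (GB53369), -3.40 (GB55593) and -3.48 (GB53368), Hbg3 -2.76 (GB43247) and the serine protease -3.90 (GB41408). The troponin C-like gene (GB48216) had -2.42, the arrestin (GB51068) -2.32, the acid phosphatase (GB41339) -2.03, the oxidase assembly factor (GB40261) -0.84, the tRNA ligase (GB47572) 0.45, E30 (GB55322) 1.47 and titin (GB47977) 0.84. Of genes past in the tentacles only, an apidaecin had -3.35 (GB51306), NR4A2 -1.41 (GB40074), glucose dehydrogenase 1.21 (GB44548), malic enzyme 1.14 (GB49966) and period 0.90 (GB52078). The gustatory receptor (GB53864) had 1.04, proteasome beta type-1 (GB48111) -0.27, myosin heavy chain (GB51653) 0.96 and troponin T (GB51214) 0.85.

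Genes near 0 in a group are given by the adjusted p of the interaction (edgeR), which was 2.5e-06 for Nkx-2.4 (GB44663), 3.5e-06 for odorant receptor 2 (GB40730), 0.0096 for the 82a-like receptor (GB43024), 0.030 for the receptor domain gene (GB52404), 0.045 for the trichohyalin-plectin-homology gene (GB42962) and 1.3e-05 for P450 6a13 (GB49877).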

How the results depend on the processing

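With an adjusted p under 0.01, 726 genes passed the interaction and 70 reversed, and 432 passed with at least a 2-fold difference. Leaving out 1 library at a time gave 1034 to 1882 genes past the interaction, 106 to 233 reversed, 3581 to 5065 with an effect in the mouthparts and 2084 to 3251 in the tentacles. The other settings kept these counts within 1.5 times. They were DESeq2 (1909 and 195 reversed), RLE scaling, TMM without royal jelly genes, no low-count filter, at least 1 CPM in both tissues, all 18 libraries, leaving out both mouthparts replicates 2, no robust estimation, thinned counts, FPKM on 2 pseudocounts and the tissues fitted apart. On log2(FPKM + 0.1), 75.5% of 2141 calls were above 0 and 60.8% of 158 reversed genes rose in the mouthparts. The shift of all genes on the FPKM scales was 0.13 and 0.16 in the interaction. Of 84 named genes, 68 kept their call under every alternative run. These genes too were chosen by their values in the same libraries, so they do not stand for all genes past the interaction. The interaction of GB55206 turned to -0.33 on log2(FPKM + 1), without passing, and its cause was not tested. Same-numbered libraries did not pair, with correlations of their deviations between -0.06 and 0.11. With the replicate number as a block within tissue, 1247 genes passed and 144 reversed, and 4116 and 2677 passed in the mouthparts and the tentacles. Limits set by depth concern genes near 0, of which 48 passed the interaction.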

Other observations

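Libraries of bees with Olea europaea pollen entered only the alternative fit with all 18 libraries. The 3 mouthparts libraries of that group carry labels that conflict, since their titles name pear and their genotype field names Olea europaea, so their group is uncertain, and they share their controls with the pear comparison. Fatty acid synthase (GB53412) stood at 1107, 1261 and 1117 CPM in those mouthparts libraries and at 385.8, 404.0 and 405.7 CPM in the Olea europaea tentacles. Its controls stood at 1500 to 1524 CPM and 227.4 to 299.6 CPM. The sulfotransferase (GB50060) stood at 20.5, 10.1 and 15.7 CPM and at 0.310, 0.300 and 0.288 CPM, against controls of 15.4 to 21.5 CPM and 0.913 to 1.28 CPM. PAPS synthase 2 (GB48066) stood at 26.1, 18.1 and 23.1 CPM and at 1.31, 2.16 and 2.46 CPM. Axonemal dynein (GB55144) stood at 34.5, 55.8 and 36.9 CPM and at 17.9, 20.9 and 19.2 CPM. Croquemort (GB53014) stood at 36.3, 28.7 and 31.3 CPM in the mouthparts, within or above its controls except for replicate 2, and at 168.2, 181.3 and 172.5 CPM in the tentacles, above all controls. These values are scaled with all 18 libraries and were not tested.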
